A study of Homo sapiens with 6 samples.

Results

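The DEAD-box (DDX) and DEAH-box (DHX) genes encode RNA helicases, enzymes that use ATP to unwind RNA or to strip proteins from it. The members described here are the rows of the count table whose symbol starts with DDX or DHX and a number, without DDX6, DDX23 and the numbered pseudogene symbols. There were 63 such rows among the 26364 gene symbols of the table, 47 DDX and 16 DHX. Of these, 54 were protein-coding in GENCODE release 29, and the others were antisense RNAs and copies of the DDX11 gene, such as DDX12P and the DDX11L rows.

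All 6 libraries came from HEK293T cells, a line of transformed kidney cells from a human embryo, that had been treated with 200 nM okadaic acid for 3 h, and no untreated cells were analysed here. Okadaic acid blocks phosphatases that would remove phosphate from UPF1, the helicase that drives nonsense-mediated mRNA decay (NMD). One group of 3 libraries was made from RNA immunoprecipitated with an antibody to phosphorylated UPF1 (p-UPF1 IP, replicates 3, 6 and 9). The other 3 libraries are titled pre-IP (replicates 1, 4 and 7), although their antibody label names rabbit IgG, so the control may be RNA from before the IP or from a mock IP. The labels do not say that replicates were separate cultures, and p-values therefore cover only library-to-library spread, which may be technical. The libraries record RNA fragments longer than 20 nt, decay intermediates included, and held from 600244 to 2057647 counts. Of the 7 markers chosen for HEK293T, VIM, KRT8, KRT18, NEFL and NEFM were counted in both groups, while PAX2 and LHX1 had counts only in p-UPF1 IP. Of 13 markers of blood, liver, fibroblast, muscle and epidermis, 9 had no count in any library, and the 13 together took at most 0.00068% of the counts of a library.

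DEAD-box proteins usually act locally and without running along the RNA, and many clamp or remodel short helices. DEAH-box proteins mostly pull on single-stranded RNA from one side, and several drive the steps of splicing. Both kinds share a helicase core whose ATP-binding motif gave the families their names. UPF1 is a helicase too but belongs to another family, and the DHX member DHX34 is known to promote NMD.

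The codons of the name-giving box are shown for the members on which the results turn, since this is the stretch that sets the subgroups apart. The representative transcript of each gene in GENCODE release 29 (GRCh38) was read in frame on its coding strand only. Codons for aspartate, glutamate, alanine and aspartate in a row stood in 29 of the 38 protein-coding DDX members and in 1 of the 16 DHX members, against 0.833% of 19922 protein-coding transcripts. Codons for aspartate, glutamate, alanine and histidine stood in 8 of 16 DHX and 1 of 38 DDX members (DDX11), against 0.397% of transcripts. With the third residue left free and glutamate and arginine required next, the histidine form stood in 14 of the 16 DHX members and 0 of the 38 DDX members, against 0.105% of transcripts. The 8 DHX members with the alanine codon are all among those 14, and DHX32 and DHX58 had no match. A match describes these letters and says nothing of enzyme activity, and it need not be the box itself. The aspartate form in DHX29 was at codon 1119, apart from its histidine form at codon 702. The DDX matches include DDX26B, since renamed INTS6L, at codon 633. In the windows the 4 codons of the box are in capitals and 9 bases of coding sequence on each side are in lower case.
DHX37: gtgatcatcGACGAGGCCCACgagaggagc
DHX8: atcatgttgGACGAGGCACATgagaggaca
DHX9: gtaattgtaGATGAAATACATgaaagagat
DHX30: gtcatcgtgGATGAGGTGCATgagcgggac
DHX34: ctgattgtgGATGAAGTCCATgagcggcat
DDX17: cttgtattgGACGAAGCTGACagaatgctt
DDX5: cttgtccttGATGAAGCAGATagaatgctt
DDX3X: ttggtgttaGATGAAGCTGATcggatgttg
The 5 DHX windows end their capitals in a histidine codon, and the 3 DDX windows in an aspartate codon. The box of DHX37 starts at codon 372 of its coding sequence, that of DHX8 at codon 685, of DHX9 at 511, of DHX30 at 587 and of DHX34 at 279. It starts at codon 325 in DDX17, 248 in DDX5 and 347 in DDX3X.

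Of the 63 members, 43 passed the filter on low counts and could be tested, 28 DDX and 15 DHX. Relative to the other genes, 4 members were higher in p-UPF1 IP and all 4 were DHX genes: DHX37, DHX9, DHX8 and DHX30. One member was lower, DDX17 (edgeR quasi-likelihood F-test, Benjamini-Hochberg adjusted p under 0.05 over all 8070 tested genes). Among all tested genes 8.81% were higher and 10.9% lower, or 19.7% in either direction, and among protein-coding genes 9.1% were higher and 8.05% lower. The 4 of 43 members higher (9.3%) are close to that background, and the 1 of 43 lower (2.33%) is below it. The TMM-scaled groups did not overlap in 9 members with p-UPF1 IP above and 4 with it below, against 39.7% of all tested genes. By subgroup, 4 of 15 DHX and 0 of 28 DDX members were higher. At an unadjusted p under 0.05 there were 5 DHX and 2 DDX members higher and 2 DDX members lower. That is 9 of 43 (20.9%) in either direction, below the 34% of all tested genes (17.3% higher, 16.7% lower), and 5 of 15 DHX members (33.3%, all higher). DESeq2 called the same numbers as edgeR (4 and 0 higher), and limma-voom called 1 DDX member higher. The difference between the subgroups was not tested. The median log2 fold change was 0.65 for the 15 DHX members, 0.12 for the 28 DDX members and 0.10 for all tested genes. The count of called members was 2 without p-UPF1 IP replicate 3 or 9, 3 without p-UPF1 IP replicate 6 and 7 (all higher) without pre-IP replicate 1. Over all tested genes 1591 were called with every library. That number was 791, 908 and 950 without p-UPF1 IP replicates 3, 9 and 6, and 1565 without pre-IP replicate 1. With either p-UPF1 IP replicate 3 or 9 left out, DHX37 and DHX9 were the 2 that were called.

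**Figure D1:**
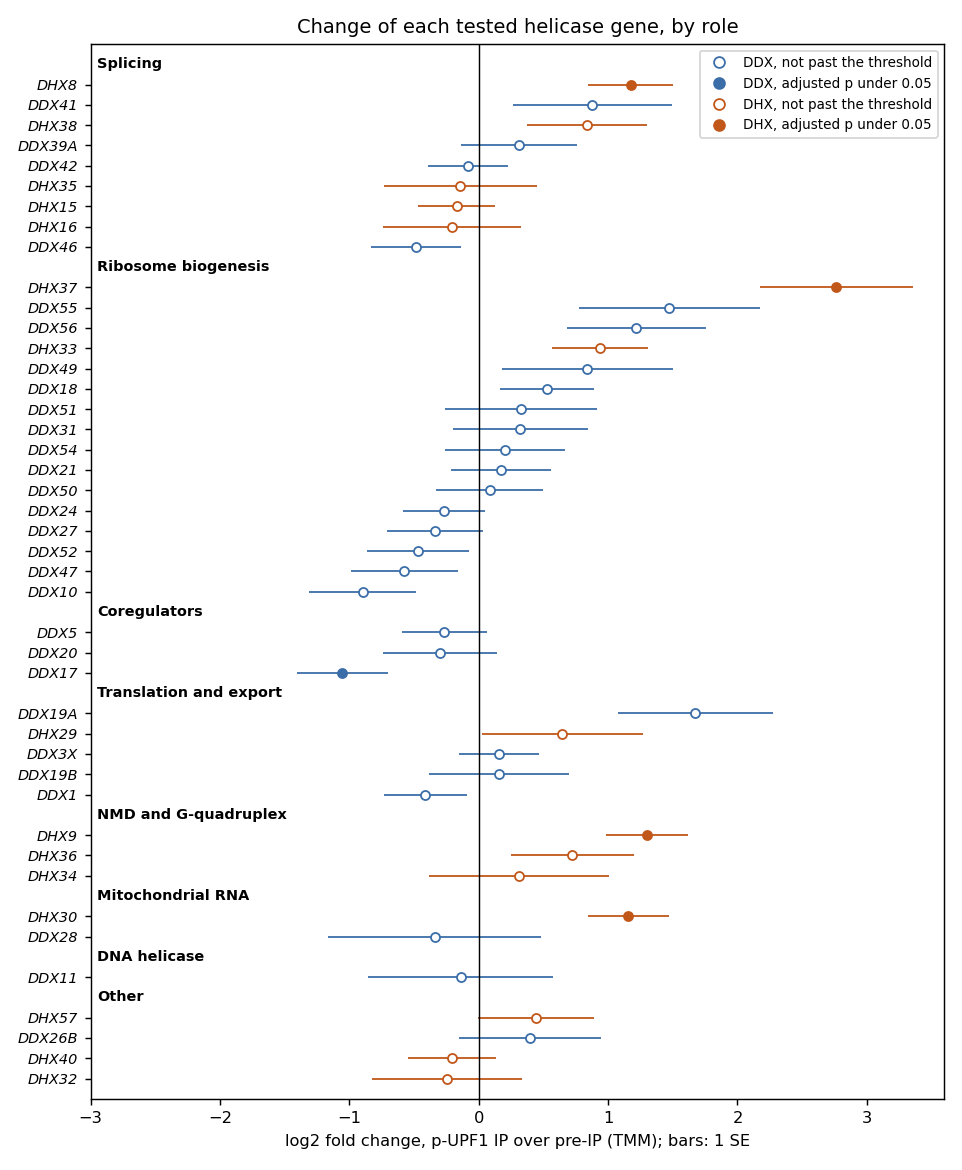
Log2 fold change (p-UPF1 IP over pre-IP, TMM scaling) of each of the 43 tested members, ordered by role, with bars of 1 SE; filled points passed an adjusted p of 0.05. The 4 filled points on the right are DHX genes, and the 1 on the left is DDX17.

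**Figure D2:**
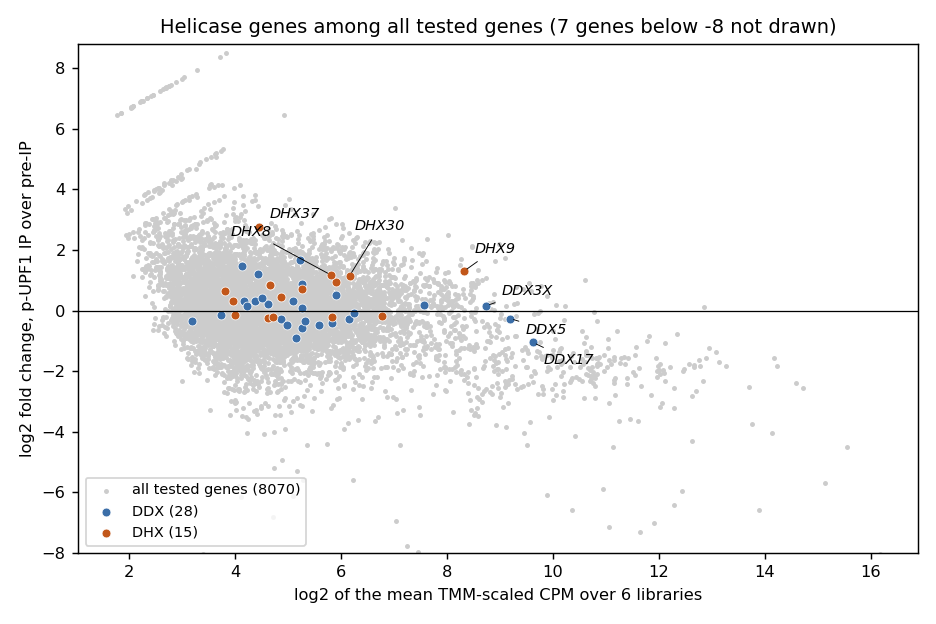
Log2 fold change against the log2 of the mean TMM-scaled CPM for all 8070 tested genes (grey), with the 28 DDX and 15 DHX members in colour. DDX17 and DHX9, both abundant, sit on opposite sides of 0.

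The sign of 18 of the 43 log2 fold changes turned with library totals alone, and none with RLE or upper-quartile scaling. TMM scaling sets the bulk of genes near 0, and with library totals alone the median log2 fold change of all tested genes moved from 0.10 to 1.60. On that scale 43 of 43 tested members were positive, against 25 of 43 with TMM, and 34 were called higher and 0 lower (edgeR), where 59.6% of all tested genes were called higher and 2.03% lower. All changes below are therefore relative to the other genes. On library totals the medians were 2.13 for DHX and 1.61 for DDX members.

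**Figure D3:**
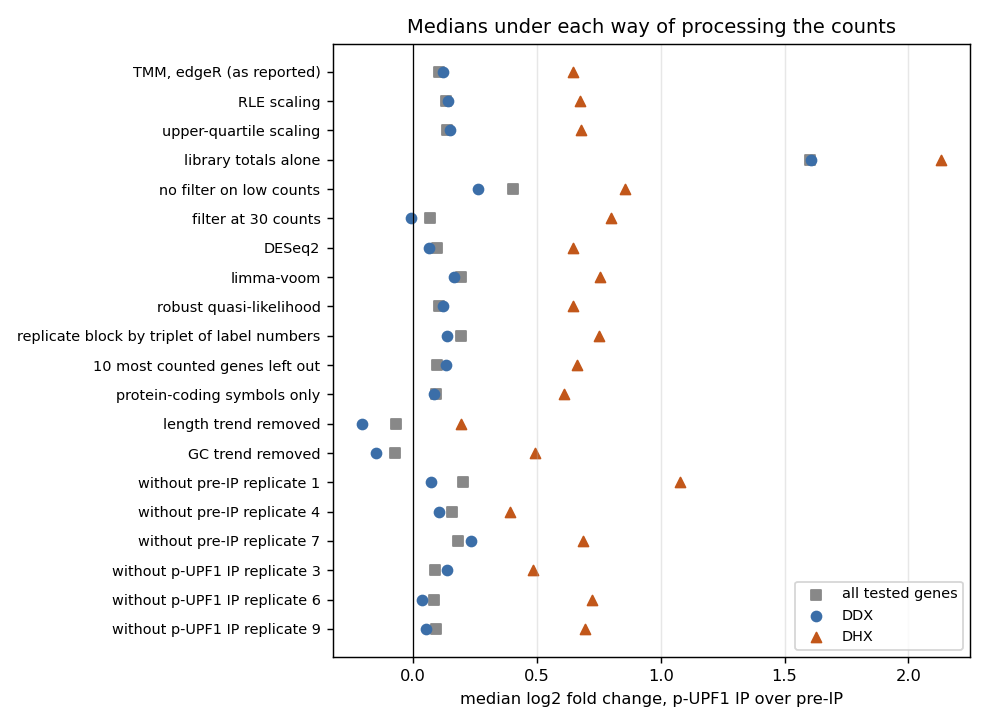
Median log2 fold change of the tested DHX members, the tested DDX members and all tested genes (x axis) under each way of processing the counts (y axis). The DHX median is the highest of the 3 in every setting shown, from 0.195 with the length trend removed to 2.13 with library totals alone.

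The share of DHX rows among the member reads needs no scaling between libraries, and was larger in every p-UPF1 IP library. DHX rows held 19.4%, 15.5% and 17.3% of the member counts in the pre-IP libraries (in the order 1, 4, 7), against 30.8%, 29.2% and 31.2% in the p-UPF1 IP libraries (3, 6, 9), the order used throughout. The groups did not overlap. Without DHX9, the most counted DHX gene, the DHX share ranged from 10.6% to 14.4% in pre-IP libraries and from 19.7% to 22.2% in p-UPF1 IP libraries. As a share of all counts, DDX rows took 0.179% ± 0.0229 (SD, n = 3) in pre-IP against 0.433% ± 0.0726 in p-UPF1 IP, and DHX rows 0.0381% ± 0.00939 and 0.190% ± 0.0400. Protein-coding symbols as a whole took 24.1% to 35.9% of the counts of pre-IP libraries and 56.1% to 74.9% of those of p-UPF1 IP libraries. Of those protein-coding counts, DDX rows took 0.577% ± 0.0482 and 0.670% ± 0.0137, and DHX rows 0.121% ± 0.00768 and 0.293% ± 0.0186.

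**Figure D4:**
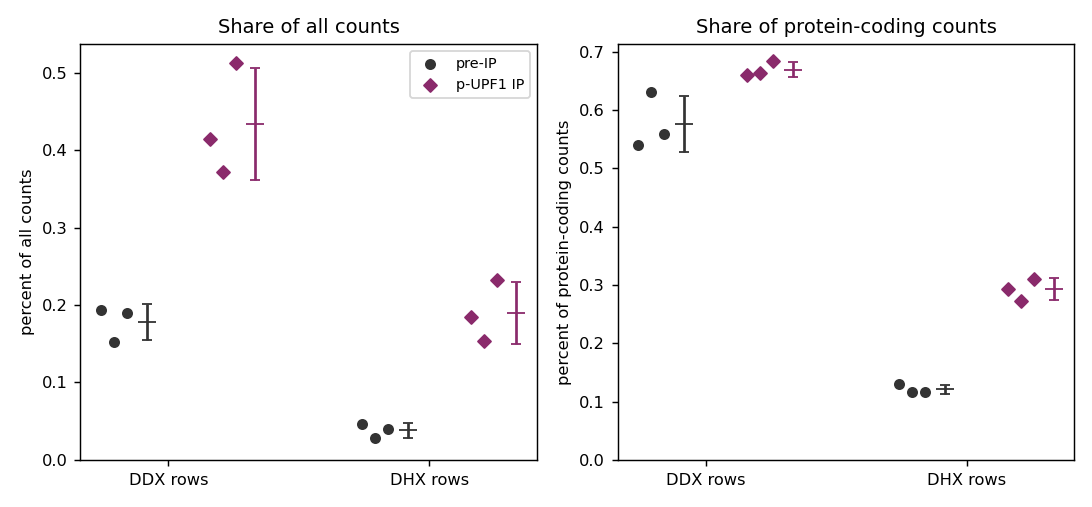
Percent of all counts (left) and of protein-coding counts (right) held by DDX and DHX rows, with 1 point per library and the mean ± SD of 3 libraries beside them. On the right the DHX share goes from 0.121% to 0.293% on average and the DDX share from 0.577% to 0.670%.

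Per kilobase of transcript, the most abundant members in p-UPF1 IP were DDX5 (208 ± 9.35 TMM-scaled CPM, counts scaled to a common library size, per kb, SD, n = 3), DDX3X (139 ± 10.7), DHX9 (107 ± 11.3) and DDX17 (107 ± 3.69). The libraries of DHX9 and DDX17 overlapped on this scale, while those of DDX5, DDX3X and DHX9 did not. In pre-IP the order was DDX5 (250.0 ± 30.8), DDX17 (222 ± 48.4), DDX3X (125 ± 15.9) and DHX9 (43.7 ± 10.6). DDX21 and DHX15 came next in p-UPF1 IP with 43.2 ± 2.28 and 34.7 ± 2.42, and from the 7th place on each member's libraries overlapped those of the next. DHX37 went from the last place of 43 in pre-IP (1.25 ± 0.43) to the 25th in p-UPF1 IP (8.35 ± 2.96).

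**Figure D5:**
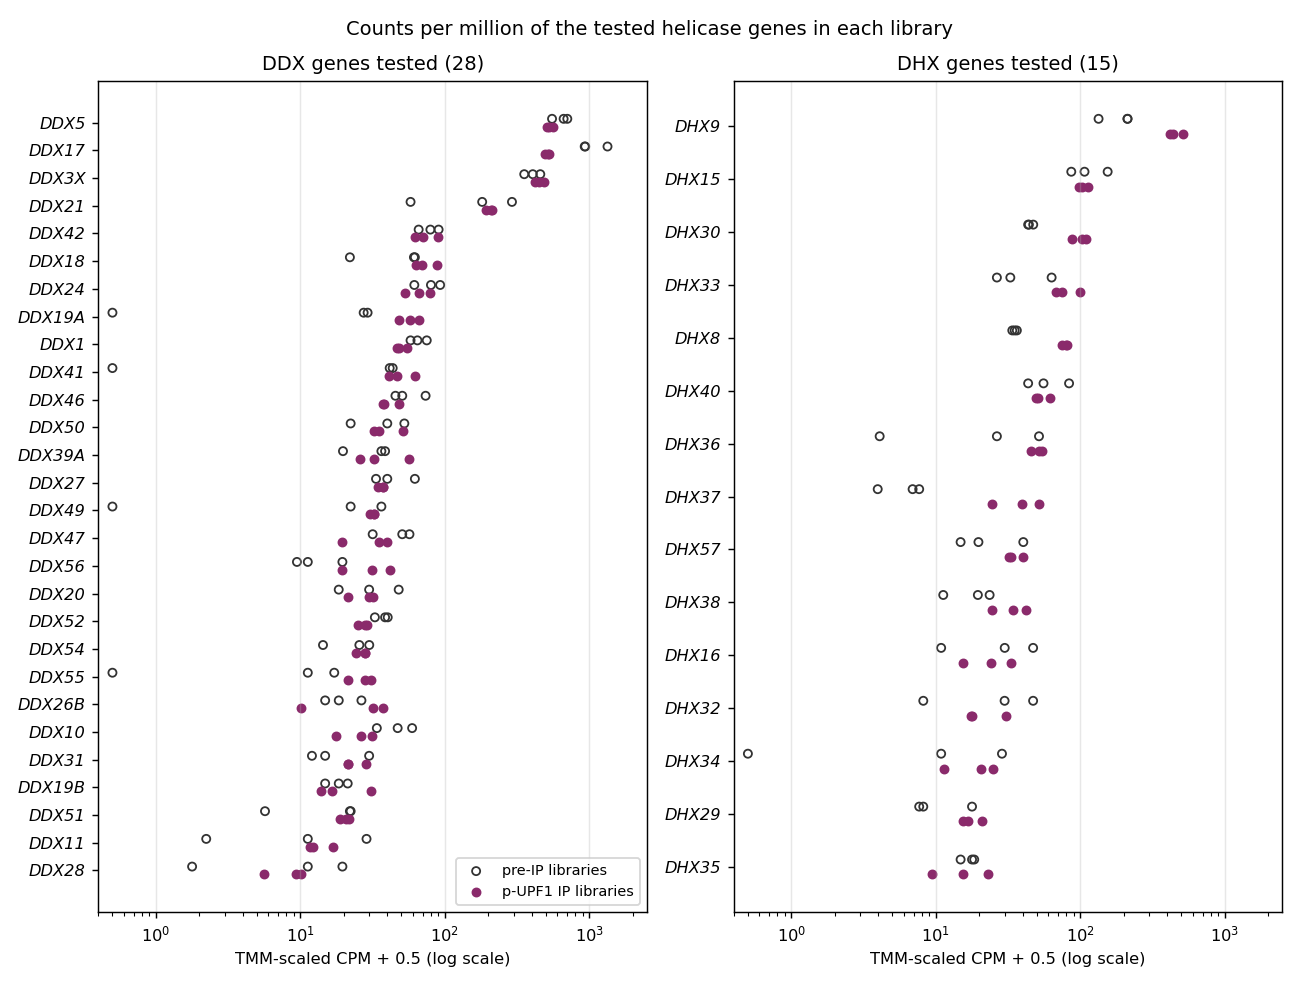
TMM-scaled CPM plus 0.5 on a log axis for each tested member, with open circles for the 3 pre-IP and filled circles for the 3 p-UPF1 IP libraries. The filled circles lie to the right of all open ones for DHX37, DHX9, DHX8 and DHX30, and to the left for DDX17; the points at the left edge are counts of 0.

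Among the members that work in ribosome biogenesis, 1 of 16 tested was higher and 15 did not pass the test. That is 6.25% higher, against 8.81% of all tested genes. DHX37, a DEAH helicase of small subunit assembly that releases the U3 snoRNA from the pre-ribosome, had 5, 2 and 2 counts in the pre-IP libraries against 128, 66 and 91 in the p-UPF1 IP libraries. Every p-UPF1 IP library was far above every pre-IP library, with 5.67 ± 1.96 CPM in pre-IP against 38.0 ± 13.5 in p-UPF1 IP (SD, n = 3). The log2 fold change was 2.77 (SE 0.59, edgeR adjusted p = 0.00345), the largest of the 43 tested members, and it rests on 9 counts in pre-IP. The call held in 19 of 19 alternatives, with adjusted p from 3.71e-05 to 0.040. DHX33, another DEAH helicase of the nucleolus, had 49, 9 and 15 counts in the pre-IP libraries against 219, 205 and 178 in the p-UPF1 IP libraries (log2 fold change 0.94, SE 0.37, adjusted p = 0.0859). Its TMM-scaled groups did not overlap, as was so for 21.9% of all tested genes in that direction.

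The most abundant member of this role, DDX21, a nucleolar helicase that links RNA polymerase I transcription to rRNA processing, had 141, 16 and 168 counts in the pre-IP libraries against 679, 525 and 378 in the p-UPF1 IP libraries. The pre-IP libraries spread from 57.3 to 290.3 CPM and enclosed the p-UPF1 IP libraries (log2 fold change 0.17, SE 0.39, adjusted p = 0.796). DDX24 was at -0.27 on the log2 fold change scale (SE 0.32, adjusted p = 0.589), and DDX50, the closest relative of DDX21, was at 0.083 (SE 0.41, adjusted p = 0.909). At the low end, DDX10 had 26, 13 and 34 counts in the pre-IP libraries against 101, 47 and 46 in the p-UPF1 IP libraries (log2 fold change -0.90, SE 0.41, adjusted p = 0.135). DDX47 was at -0.57 (adjusted p = 0.351), and 99.7% of its 30-base words also occur in the overlapping gene APOLD1. The 16 log2 fold changes of the role ran from -0.90 to 2.77 with a median of 0.26.

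Among the splicing helicases, 1 of 9 tested was higher (11.1%, near the 8.81% of all tested genes). DHX8, which releases spliced mRNA from the spliceosome, had 26, 10 and 20 counts in the pre-IP libraries against 241, 221 and 141 in the p-UPF1 IP libraries. Its libraries lay close together within each group, with 34.5 ± 1.27 CPM in pre-IP against 77.6 ± 3.58 in p-UPF1 IP, and the groups were well apart. Its log2 fold change was 1.17 (SE 0.33, edgeR adjusted p = 0.0194). The call was lost without p-UPF1 IP replicate 3 (adjusted p = 0.0744), 6 (0.0760) or 9 (0.0745) and with the trend of transcript length removed (0.69, adjusted p = 0.192).

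DHX38, which remodels the spliceosome between the catalytic steps of splicing, had 18, 3 and 11 counts in the pre-IP libraries against 136, 93 and 43 in the p-UPF1 IP libraries (log2 fold change 0.84, SE 0.47, adjusted p = 0.220). DHX15, which takes apart spent or faulty spliceosomes, was the most abundant splicing member, with 115 ± 34.8 CPM in pre-IP against 104 ± 7.25 in p-UPF1 IP (log2 fold change -0.17, SE 0.30, adjusted p = 0.732). DDX42, an SF3B1-associated helicase, was at -0.082 on the log2 fold change scale (SE 0.31, adjusted p = 0.880), and DDX46, which opens the way for the U2 snRNP, was at -0.48 (SE 0.35, adjusted p = 0.354). The other DEAH members of this role, DHX35 and DHX16, were at -0.14 and -0.21 on the log2 scale, neither past the threshold (adjusted p = 0.892 and 0.822). The 9 log2 fold changes of the role had a median of -0.082.

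The paralogs DDX39A and DDX39B, which couple splicing to mRNA export, were counted very differently. DDX39A had 15, 10 and 22 counts in the pre-IP libraries against 83, 87 and 100 in the p-UPF1 IP libraries (log2 fold change 0.31, SE 0.45, adjusted p = 0.673). DDX39B had 4 counts in pre-IP replicate 1 and 0 in the other 5 libraries, which allows a share of up to 6.25e-05% of the p-UPF1 IP counts. In the annotation 96.2% of the 30-base words of the DDX39B transcript also occur in the readthrough gene ATP6V1G2-DDX39B, whose row held 0 counts, while DDX39A and DDX39B share 0 such words. The row of DDX39B is therefore not read as a level of its mRNA. EIF4A1, another helicase overlapped by a readthrough gene, had 0 counts in all libraries. Other rows with such overlap were not empty. DDX47 shares 99.7% of its 30-base words with the overlapping gene APOLD1, and its row held from 14 to 113 counts per library. DDX19B shares 75.8% with an unnamed readthrough gene, and its row held from 4 to 99. Whether overlap emptied the rows of DDX39B and EIF4A1 was not tested.

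DDX17 and DDX5 are close paralogs that act as transcription coregulators and in microRNA processing. DDX17 had 730, 372 and 536 counts in the pre-IP libraries against 1695, 1443 and 879 in the p-UPF1 IP libraries, which after TMM scaling were 934, 1332 and 926 CPM and 518, 525 and 492 CPM. Every p-UPF1 IP library lay below every pre-IP library, as for 17.7% of all tested genes in that direction. The log2 fold change was -1.05 (SE 0.35, edgeR adjusted p = 0.0435). The call was lost in 11 of 19 alternatives and reversed in 1: it was lost without each of the 6 libraries in turn (adjusted p from 0.0704 without pre-IP replicate 7 to 0.146 without p-UPF1 IP replicate 3), and with library totals alone the sign turned (0.51, adjusted p = 0.172).

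DDX5 had 430, 196 and 383 counts in the pre-IP libraries against 1823, 1437 and 913 in the p-UPF1 IP libraries, or 638 ± 78.6 and 530 ± 23.9 CPM (log2 fold change -0.26, SE 0.33, adjusted p = 0.609). The ratio of DDX17 to DDX5 counts within a library, which no scaling changes, was 1.70, 1.90 and 1.40 in pre-IP against 0.930, 1.0 and 0.963 in p-UPF1 IP. The groups did not overlap (two-sided exact permutation p = 0.1, the floor for 3 libraries a side, and 0.1 after adjustment over the 2 ratios tested, DHX9 to DDX5 being the other). Both ratios were chosen after the values had been seen. The 2 representative transcripts share 0 words of 30 bases, and the microRNA genes MIR3064 and MIR5047 lie inside DDX5. DDX20, a partner of the SMN complex in snRNP assembly, was at -0.30 on the log2 fold change scale (SE 0.44, adjusted p = 0.683).

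Of the members tied to NMD, G-quadruplexes or RNA-DNA hybrids, 1 of 3 was higher, where 8.81% of all tested genes were. DHX9, a helicase of RNA-DNA hybrids and long double-stranded RNA, had 165, 59 and 77 counts in the pre-IP libraries against 1667, 1148 and 784 in the p-UPF1 IP libraries. The p-UPF1 IP libraries, at 418 to 509 CPM, were all above the pre-IP libraries at 133 to 211 CPM. Its log2 fold change was 1.30 (SE 0.32, edgeR adjusted p = 0.00854), it was the most counted of the 4 increases, and the call held in 19 of 19 alternatives (adjusted p from 1.3e-05 to 0.0451). Relative to DDX5 in the same library, DHX9 counts went from 0.384, 0.301 and 0.201 to 0.914, 0.799 and 0.859 (two-sided exact permutation p = 0.1, the floor for 3 libraries a side, adjusted 0.1). That ratio was chosen after its values had been seen, so the p-value adds no support. In the annotation 14% of the 30-base words of its transcript occur in other genes, mostly the processed pseudogene DHX9P1.

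DHX34, the NMD helicase that binds UPF1 and SMG1, was thinly counted, with 22, 0 and 6 counts in the pre-IP libraries against 80, 30 and 36 in the p-UPF1 IP libraries. Its groups overlapped (12.8 ± 14.2 and 18.5 ± 6.90 CPM, log2 fold change 0.31, SE 0.69, adjusted p = 0.792), and at this depth no change was detectable. The sign of DHX34 turned without pre-IP replicate 4 (-0.0575) and with the GC trend removed (-0.39). DHX36, which unwinds G-quadruplexes, had 40, 1 and 15 counts in the pre-IP libraries against 177, 123 and 92 in the p-UPF1 IP libraries (log2 fold change 0.72, SE 0.48, adjusted p = 0.304). Its p-UPF1 IP libraries lay close together and its pre-IP libraries ranged from 3.58 to 51.2 CPM.

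Of the mitochondrial members, 1 of 2 was higher, where 8.81% of all tested genes were. DHX30, which is needed for assembly of the mitochondrial ribosome, had 34, 12 and 27 counts in the pre-IP libraries against 335, 238 and 194 in the p-UPF1 IP libraries. Its pre-IP libraries lay within 43.0 to 46.7 CPM and its p-UPF1 IP libraries within 86.6 to 108.5 CPM. The log2 fold change was 1.15 (SE 0.31, edgeR adjusted p = 0.0156). The call was lost without p-UPF1 IP replicate 3 (adjusted p = 0.0780) or 9 (0.0769), with the length trend removed (0.83, adjusted p = 0.0919) and with the trend of GC content removed (0.49, adjusted p = 0.294); 60.1% of the bases of its transcript are G or C. DDX28, a helicase of the large mitochondrial subunit, had 1, 3 and 11 counts in the pre-IP libraries against 29, 14 and 17 in the p-UPF1 IP libraries (log2 fold change -0.34, SE 0.82, adjusted p = 0.808).

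Among the members of translation and export, 5 were tested and 0 passed the threshold in edgeR or DESeq2, while 1 had an unadjusted p under 0.05 and 1 was called by limma-voom. Both of these were DDX19A, which helps mRNA leave the nuclear pore. Among all tested genes 19.7% passed in edgeR and 34% had an unadjusted p under 0.05. DDX19A had 21, 8 and 0 counts in the pre-IP libraries against 214, 130 and 102 in the p-UPF1 IP libraries (log2 fold change 1.67, SE 0.60, edgeR adjusted p = 0.0565). It passed the threshold in 8 of the 19 alternatives, including those that leave out pre-IP replicate 1 (adjusted p = 0.0331) or 4 (0.0453). Without pre-IP replicate 7, where it had 0 counts, its log2 fold change was 1.07 (adjusted p = 0.0771).

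Its neighbour and paralog DDX19B had 14, 4 and 12 counts in the pre-IP libraries against 99, 44 and 24 in the p-UPF1 IP libraries (log2 fold change 0.16, SE 0.54, adjusted p = 0.870). The 2 transcripts have 854 words of 30 bases in common, 28.8% of those of DDX19A and 49.2% of those of DDX19B, and an unnamed readthrough gene overlaps both, so reads from one may be missing or counted for the other. DDX3X, which helps ribosomes scan structured leaders, had 405 ± 51.5 and 451 ± 34.5 CPM (log2 fold change 0.16, SE 0.31, adjusted p = 0.768). DDX1, of the tRNA ligase complex, was at -0.41 on the log2 fold change scale (SE 0.32, adjusted p = 0.390). Its groups did not overlap after TMM scaling, as was so for 17.7% of all tested genes in that direction. The initiation helicase DHX29 had 6, 2 and 10 counts in the pre-IP libraries against 67, 41 and 29 in the p-UPF1 IP libraries (log2 fold change 0.65, SE 0.62, adjusted p = 0.500).

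The DNA helicase DDX11, which works in sister chromatid cohesion, had 22, 3 and 1 counts in the pre-IP libraries against 53, 32 and 20 in the p-UPF1 IP libraries (log2 fold change -0.14, SE 0.72, adjusted p = 0.912). Its pseudogene copy DDX12P had 3 counts in pre-IP against 47 in p-UPF1 IP, a TMM-scaled ratio of 3.24 with a 95% Clopper-Pearson interval for counting error of 1.04 to 16.2. The intervals of the other untested members with a ratio all included 1. These were DDX59 (0.751, 0.378 to 1.62), DDX11-AS1 (1.24, 0.276 to 11.4), DDX58 and DDX60. The transcripts of DDX11 and DDX12P have 44.0% and 56.2% of their 30-base words in common, so the reads of the pair are not separable with confidence. Among the 4 tested members of no listed role, DHX40 and DHX57 had the highest mean CPM over the 6 libraries, with log2 fold changes of -0.21 (SE 0.34, adjusted p = 0.713) and 0.45 (SE 0.45, adjusted p = 0.523). None of the 4 had an unadjusted p under 0.05 or a call by DESeq2 or limma-voom. DDX26B, since renamed INTS6L as a relative of an Integrator subunit, had 14, 4 and 15 counts in the pre-IP libraries against 103, 101 and 17 in the p-UPF1 IP libraries, and its replicate 9 stood below the other p-UPF1 IP libraries.

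The members that sense foreign RNA or serve the germ line were almost absent. DDX58, the sensor RIG-I, had 5 counts in pre-IP against 21 in p-UPF1 IP, DDX60 had 5 and 15, its copy DDX60L had 0 in all libraries, and DHX58, a regulator of RIG-I, had 1 count in all. The TMM-scaled ratio was 0.867 for DDX58 (95% Clopper-Pearson interval for counting error 0.318 to 2.94) and 0.619 for DDX60 (0.214 to 2.18). The germ-cell helicases DDX4 and DDX53 had 0 counts and DDX43 had 1. In all, 12 of the 63 members had no count in any library, among them DDX25, DDX3Y and the DDX11L rows. A count of 0 allows a share of up to 0.00011% of the pre-IP counts and 6.25e-05% of the p-UPF1 IP counts, for counting error only.

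Some tested DDX members, 4 in all, had 0 counts in pre-IP replicate 7 while they were counted in replicates 1 and 4: DDX19A, DDX41 (32, 12 and 0), DDX49 (17, 10 and 0) and DDX55 (13, 3 and 0). DDX41, DDX49 and DDX55 were on the log2 fold change scale at 0.88, 0.84 and 1.47 with none past the threshold (adjusted p = 0.339, 0.400 and 0.147). Replicate 7 had 0 counts for 7.91% of all tested genes, replicate 4 for 10.3% and replicate 1 for 3.40%, and each p-UPF1 IP library for at most 0.112%. The median GC content was 55.1% for the transcripts of those 4 members and 48.4% for the other members. Over all tested genes it was 54.1% where replicate 7 had 0 counts and 47.1% elsewhere. The part of GC content in these zeros was not tested.

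The DHX members differ from the DDX members in length. The median coding length was 3429 bases for the 15 tested DHX members, 2196 for the 28 DDX members and 1533 for all tested genes, and across 7682 tested genes log2 fold change and log2 coding length had a Pearson r of 0.445 (Spearman 0.461). Across the 43 tested members that r was 0.166 (Spearman 0.158), a weaker relation. With log2 transcript length, the measure of the trend removed below, Pearson r was 0.0654 across the members and 0.464 across 8016 tested genes. These are descriptions across genes, which share the same 6 libraries and are not independent replicates. With the trend of each library with transcript length removed, the median log2 fold change was 0.195 for DHX and -0.206 for DDX members, 2 DHX members (DHX37 and DHX9) were still higher, and DDX17 was still lower (-1.53, edgeR adjusted p = 0.00231). Median GC content was 48.8% for DHX and 48.9% for DDX members. Across the 43 members log2 fold change and GC content had a Pearson r of 0.362 (Spearman 0.323), the highest of the features compared (transcript length, coding length and GC content), against 0.190 (Spearman 0.194) over 8016 tested genes. With the GC trend removed the medians were 0.49 for DHX and -0.15 for DDX members.

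Several RNA helicases outside the DDX and DHX names were also higher. Of 23 such genes listed, 16 were tested, and 5 were higher and 0 lower by edgeR, DESeq2 and limma-voom alike. At an unadjusted p under 0.05 (edgeR) 8 were higher and 0 lower. In edgeR those are 31.2% and 50.0% of the 16, against 8.81% and 17.3% of all tested genes higher. The list was chosen with earlier results of these data known, so these rates are a description and not a test. The median log2 fold change of these genes was 1.05. Their median coding length was 4372.5 bases, against 1533 for all tested genes. In log2 units YTHDC2, a meiotic m6A reader with a DEAH-like core, rose by 2.05 (SE 0.46, adjusted p = 0.00477). UPF1 itself rose by 1.70 (adjusted p = 0.00461), a call lost with the GC trend removed (1.01, adjusted p = 0.0753). In the pre-IP libraries YTHDC2 had 11, 1 and 11 counts and UPF1 had 21, 5 and 28. SNRNP200, which unwinds U4 from U6 in the spliceosome, rose by 1.32 (SE 0.34, adjusted p = 0.0117). That call was lost with the length trend removed (0.64, adjusted p = 0.209) and without pre-IP replicate 1 (0.0611) or 7 (0.0529). DICER1 was also among the genes called higher. The exon junction helicase EIF4A3, of the DEAD-box family despite its name, had 182 ± 53.3 and 178 ± 32.8 CPM (log2 fold change -0.011, SE 0.30, adjusted p = 0.983).

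Cofactors of these helicases, mainly G-patch proteins and partners with an MIF4G fold, were called in both directions. Of 32 listed, 29 were tested. By edgeR 2 were higher (6.9%) and 3 lower (10.3%), close to the 8.81% and 10.9% of all tested genes. DESeq2 called 5 higher and 2 lower, and limma-voom 1 and 3. The median log2 fold change was 0.096. On the log2 scale CHERP rose by 2.19 (SE 0.52, adjusted p = 0.0067) and the splicing regulator RBM10 by 1.68 (SE 0.57, adjusted p = 0.0479). Both rest on few counts in the pre-IP libraries, 14, 1 and 3 for CHERP and 12, 0 and 9 for RBM10. Without pre-IP replicate 1 the value of CHERP was 3.34. The RBM10 call was lost in limma-voom (adjusted p = 0.0749), with protein-coding symbols only (0.0570), with the length (0.110) or GC trend (1.0, adjusted p = 0.240) removed, and without pre-IP replicate 1 or 4 or any one p-UPF1 IP library (0.0538 to 0.258). RBM17, a G-patch partner in splicing, fell by 1.79 (SE 0.36, adjusted p = 0.00234), from 74.7 ± 13.7 to 21.3 ± 4.28 CPM (SD, n = 3). The EIF4A inhibitor PDCD4 fell by 1.35 (SE 0.40, adjusted p = 0.0254), and EIF4B, which stimulates EIF4A, fell by 1.02 (SE 0.28, adjusted p = 0.0170). With library totals alone PDCD4 and EIF4B turned positive (0.15 and 0.50) and the RBM17 call was lost (-0.245, adjusted p = 0.628). The PDCD4 call was also lost in DESeq2 (adjusted p = 0.0677) and without pre-IP replicate 1 or 7 or any one p-UPF1 IP library (0.0573 to 0.130). The EIF4B call was lost with no filter on low counts (adjusted p = 0.0869) and without pre-IP replicate 7 or any one p-UPF1 IP library (0.0515 to 0.0820). By mean CPM over the 6 libraries the 2 most abundant cofactors, EIF4G2 and EIF4G1, were on the log2 fold change scale at 0.25 (adjusted p = 0.611) and 0.80 (adjusted p = 0.0633).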

How the data were processed

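The comparison used 6 RNA libraries, 3 titled pre-IP and 3 p-UPF1 IP. Per the submitters' processing notes the authors' tools included Subread 1.5.0p3 (featureCounts), STAR 2.5.2b and cutadapt 1.15, and the build was hg19. The deposited values are whole-number read counts per gene symbol, not normalized. The annotation, strandedness and rule for multi-mapping reads were not given in the sources used here, so overlapping, antisense and near-identical genes are uncertain. No molecular identifiers are described, so intervals cover counting error only.

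Counts were tested over the whole table with edgeR 4.0.16 in R 4.3.3 (filterByExpr minimum count 10, TMM, quasi-likelihood F-test, Benjamini-Hochberg 0.05). SE is the log2 fold change divided by the square root of F. CPM are TMM-scaled. The 19 alternatives included DESeq2 1.42.0 and limma-voom (limma 3.58.1); the one removing the GC trend was chosen after seeing the data. On simulated counts 67.2% of 58 genes changed 4-fold were recovered. Few genes were changed there, with 102 calls among 7557 genes, against 1591 of 8070 in the data. The recovery in the data may therefore differ. Types, lengths and sequences were matched by symbol to GENCODE 29 (GRCh38; the notes list hg19, hence coordinates are left out), with 63 of 63 members matched. The representative transcript has the longest coding sequence in the basic set.

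Named members were those past the threshold, the 2 most abundant per role, and fixed paralogs and NMD or G-quadruplex members; others were named after their values were seen. Members and lists were chosen with earlier results of these data known. A gene among the other RNA helicases is not reported here by name.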

Additional observations from a re-analysis of the deposited data

How the results depend on the processing

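With library totals alone 4970 genes and 34 members passed the threshold, against 1591 and 5 with TMM. Removing the length trend left 995 genes and 3 members, and removing the GC trend left 1462 genes and 3 members. Leaving out 1 library at a time gave 791 to 1628 genes and 2 to 7 members, the low ends without p-UPF1 IP replicate 3 and, for the members, also without replicate 9. As a share of protein-coding counts in place of all counts, DDX rows took 0.577% in pre-IP against 0.670% in p-UPF1 IP and DHX rows 0.121% and 0.293%. The label numbers could form triplets (1 and 3, 4 and 6, 7 and 9), although no label says so. Deviations from the group means correlated at 0.0904, 0.168 and 0.101 within triplets, every library best with its own. This is at most a weak hint from the data and not the design. Deviations within a group cancel out, so the correlations are not independent, and the pairing was not tested. A replicate block by triplet called 1656 genes and 6 members, DDX19A being added.

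Some log2 fold changes changed sign in some settings, and not only those near 0. Library totals alone turned the called decreases of DDX17 (-1.05 with TMM), PDCD4 (-1.35) and EIF4B (-1.02). The cause was not tested beyond the construction of each setting. Apart from the members under library totals alone, this paragraph and the next list only genes named by rule. Other tested members also turned. With library totals alone the sign turned for DDX1 (1.09), DDX11 (1.31), DDX17 (0.513), DDX24 (1.24), DDX28 (1.2), DDX42 (1.47), DDX5 (1.29), DHX15 (1.35), DHX40 (1.31), EIF4A3 (1.53), PDCD4 (0.153) and EIF4B (0.496). It also turned for DDX10 (0.638), DDX20 (1.195), DDX27 (1.162), DDX46 (1.015), DDX47 (0.975), DDX52 (1.032), DHX16 (1.365), DHX32 (1.362) and DHX35 (1.395). With the length trend removed it turned for DDX21 (-0.241), DDX3X (-0.129), DDX50 (-0.0663), DHX34 (-0.0253), EIF4A3 (0.182) and EIF4G2 (-0.121), and with the GC trend removed for DDX39A (-0.214) and DHX34 (-0.387). Without a filter on low counts it turned for DDX11 (0.0267), DDX42 (0.094), DHX15 (0.00565) and EIF4A3 (0.17). DESeq2 turned DDX11 (0.00137), DDX42 (0.00877) and EIF4A3 (0.0835), and limma-voom DDX11 (0.37), DDX28 (0.144) and EIF4A3 (0.0259). The filter at 30 counts turned DDX50 (-0.0103), the replicate block DDX11 (0.282), and RLE scaling, upper-quartile scaling and leaving out the 10 most counted genes turned EIF4A3 (0.0122, 0.0183 and 0.0038).

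Leaving out 1 library at a time turned the sign of some, and their log2 fold changes then ranged from -0.681 to 1.37 for DDX11, -0.293 to 0.375 for DDX19B, -0.165 to 0.721 for DDX21, -0.991 to 0.84 for DDX28, -0.0782 to 0.582 for DDX39A, -0.222 to 0.0752 for DDX42, -0.243 to 0.495 for DDX50, -0.278 to 0.117 for DHX15, -0.0575 to 1.49 for DHX34, -0.323 to 0.11 for DHX40 and -0.161 to 0.272 for EIF4A3. The 4 calls of higher members kept their sign in all 19 alternatives. On the simulated data, where few genes were changed, 6.94% of 72 genes changed 2-fold and 88.7% of 62 changed 8-fold were recovered.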

Other observations

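Transcripts typed as nonsense-mediated decay products in GENCODE 29 are common among the helicase genes. Of the 43 tested members 28 (65.1%) have at least 1, against 44.0% of all tested genes, and DDX3X alone has 14 and DDX11 has 8. Members with such a transcript were not called higher more often than the rest: 2 of 28 with one (DHX8 and DHX30) and 2 of 15 without (DHX37 and DHX9), with median log2 fold changes of 0.18 and 0.17. Over the 7681 protein-coding genes tested, 9.27% of those with such a transcript and 8.96% of those without were higher in p-UPF1 IP. These counts describe genes, not isoforms, since the table does not split reads by transcript, and no test was made.

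DDX5, DDX17 and DDX3X together held 62.8%, 74.4% and 65.8% of all DDX counts in the pre-IP libraries, against 57.3%, 60.0% and 57.2% in the p-UPF1 IP libraries. DDX17 alone went from 28.3% ± 5.31 (SD, n = 3) to 13.9% ± 0.970 of the member counts. DHX9 held from 20.5% to 35.1% of the DHX counts of pre-IP libraries and from 37.2% to 43.9% of those of p-UPF1 IP libraries.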
